A study of Mus musculus with 32 samples.

Results

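The effect of Activin-A on YUMM3.3 melanoma cells that also received IFN-γ was compared between 12 hrs and 4 hrs of treatment. The comparison rests on 16 of the 32 wells of the series, chosen by their labels: 4 wells each with IFN-γ alone and with IFN-γ plus Activin-A, at either time. At each time the Activin-A effect is the log2 fold change (log2FC) of the wells with both factors against the wells with IFN-γ alone, and the time difference is the effect at 12 hrs minus the effect at 4 hrs. A gene with a positive time difference therefore had an Activin-A effect that was more positive, or less negative, at 12 hrs. The question it answers is which Activin-A responses of IFN-γ-treated cells came early, came late or were the same at both times.

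YUMM3.3 is an established mouse melanoma cell line, and all wells are of this 1 line, without any transgene or other genetic change named in the labels. Cells were seeded in multi-well plates and given IFN-γ at 20 ng/ml, Activin-A at 40 ng/ml, both factors or neither (NT), and were collected at 4 hrs or at 12 hrs. Messenger RNA was counted by BRB-seq, a bulk method in which each sample receives a barcode before pooling and only the 3′ ends of transcripts are read. The 4 wells of a group are parallel wells of 1 cell line, so that p-values measure the spread between wells and not between independent cell lines or tumors. The other 16 wells, NT and Activin-A alone at both times, gave the same time difference without IFN-γ.

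Activin-A is a secreted member of the TGF-β family. It binds type II and type I activin receptors on the cell surface, and the receptors phosphorylate Smad proteins, which move to the nucleus and regulate target genes, among them inhibitors of the same pathway and genes of the cytoskeleton and the extracellular matrix. IFN-γ signals through JAK kinases and the transcription factors they activate and induces antigen presentation, guanylate-binding proteins, chemokines and antiviral genes, part of which rise in a later wave through transcription factors that are themselves induced.

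Total counts of the 16 wells ranged from 697656 to 1241095, and the floor of 3 counts was worth 2.49 to 4.41 normalised counts per 1e6 (CPM), which covers counting error only. Of 12451 genes in the table, 9332 passed the filter on low counts and entered edgeR's quasi-likelihood test, fitted over all 32 wells, and genes with a Benjamini-Hochberg adjusted p under 0.05 are called DEGs. Of 22 markers of the melanocyte lineage and neural crest, 20 were in the table, with summed levels of 610 to 752 CPM in the 16 wells. Of these, 13 were tested and 0 were DEGs of the time difference, against 0.0964% of all genes. Markers of other cell types were low: 0 of 6 endothelial, 1 of 6 keratinocyte, 5 of 10 immune and 4 of 6 fibroblast markers were listed, the immune markers at a summed 4.41 to 24.8 CPM and the fibroblast markers at 39.7 to 74.3 CPM. In such bulk samples a change in the number of cells and a change in RNA per cell cannot be told apart. Replicate 1 of Activin-A alone at 4 hrs, which enters only the comparison without IFN-γ and the shared estimate of spread, stood apart with 2.14% mitochondrial counts, against 1.08% to 1.54% in the 16 wells with IFN-γ.

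The Activin-A effect under IFN-γ differed between the times in 9 genes, or 0.0964% of those tested, with edgeR's quasi-likelihood test and Benjamini-Hochberg adjustment. The time difference was positive in 4 of them (0.0429%), Acta2, Dmp1, Sertad4 and Mt1, and negative in 5 (0.0536%), Pmepa1, Crabp1, Chst2, Igsf11 and Oasl2. At an unadjusted p under 0.05 there were 622 genes, 298 positive and 324 negative. At 12 hrs Activin-A changed 72 genes (0.772%) in the presence of IFN-γ, 37 higher (0.396%) and 35 lower (0.375%), and at 4 hrs it changed 98 (1.05%), 67 higher (0.718%) and 31 lower (0.332%). Leaving out 1 well of the compared groups gave 40 to 67 genes at 12 hrs and 53 to 92 at 4 hrs. Of the 9 genes, 5 were DEGs at 12 hrs only, 1 at 4 hrs only, 1 at both times and 2 at neither time. Acta2, Dmp1 and Pmepa1 were the 3 that were DEGs of the time difference under every alternative processing and with any of the 16 wells left out, while the count of genes ran from 3 to 18 over the left-out wells.

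**Figure D1:**
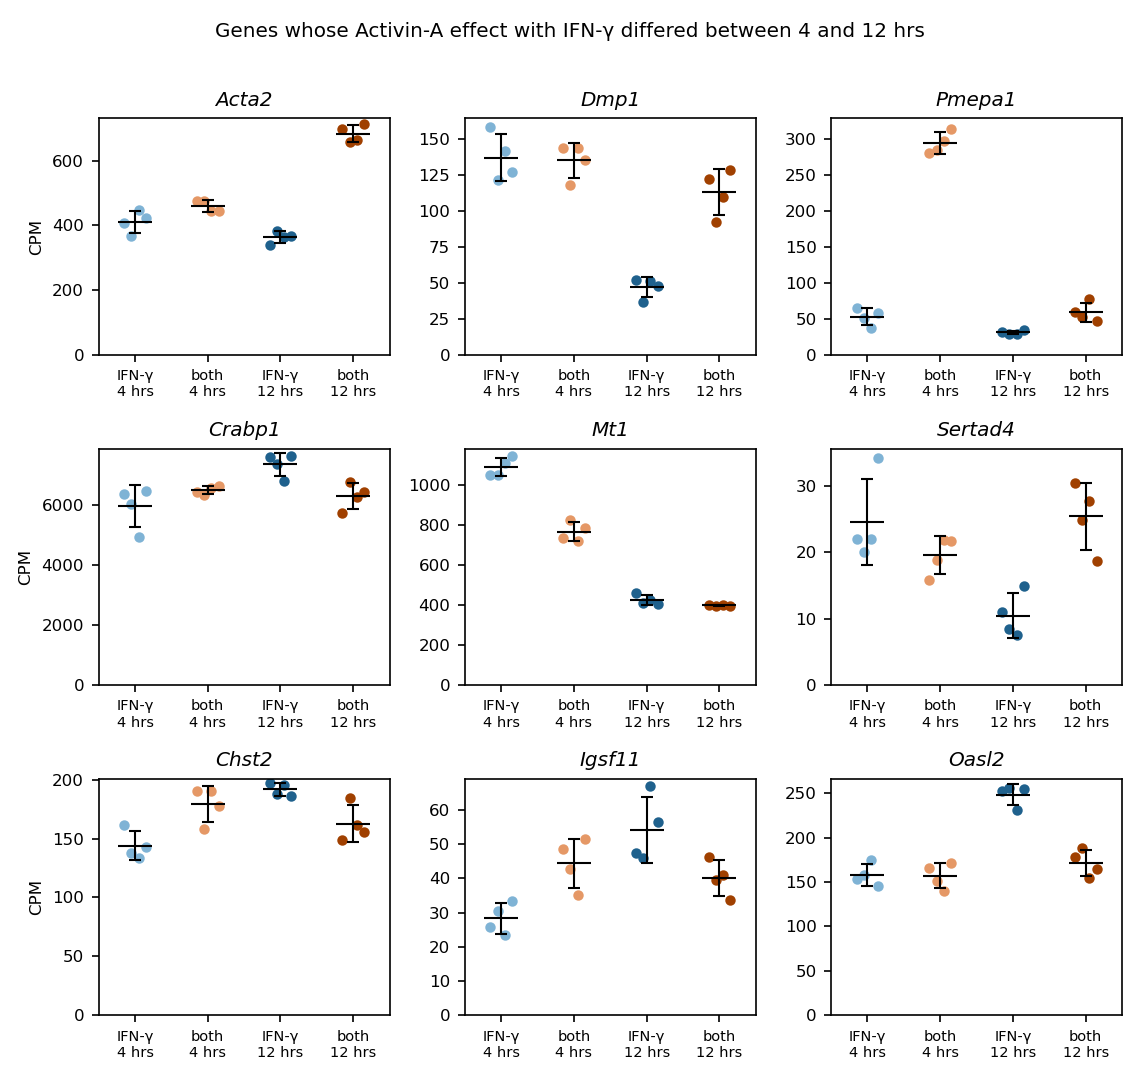
Levels in CPM of the 9 genes in each of the 16 wells with IFN-γ; each point is 1 well, the long bar is the mean and the error bar the SD of 4 wells, and both stands for IFN-γ plus Activin-A. Acta2, Dmp1 and Sertad4 separate at 12 hrs and overlap at 4 hrs, whereas the gap of Pmepa1 and Mt1 is widest at 4 hrs.

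Acta2, which encodes the smooth-muscle actin of contractile cells and myofibroblasts, gained its Activin-A response late. At 4 hrs its level was 407, 366, 447 and 423 CPM with IFN-γ alone and 474, 476, 445 and 444 CPM with both factors. At 12 hrs it was 338, 384, 365 and 367 CPM with IFN-γ alone and 698, 657, 665 and 712 CPM with both. The groups overlapped at 4 hrs, and at 12 hrs every well with both factors lay above every well with IFN-γ alone. The Activin-A effect was 0.17 ± 0.067 (log2FC ± SE) at 4 hrs and 0.91 ± 0.067 at 12 hrs, a time difference of 0.74 ± 0.095 (edgeR's quasi-likelihood test, adjusted p = 1.51e-07). From 4 to 12 hrs Acta2 rose with both factors, by a log2FC of 0.57, and had a log2FC of -0.17 with IFN-γ alone (adjusted p = 0.129).

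Dmp1, a secreted acidic phosphoprotein best known from the mineralized matrix of bone and dentin, was also a late gene. Its levels at 4 hrs were 158, 121, 141 and 127 CPM with IFN-γ alone and 143, 118, 144 and 135 CPM with both factors. By 12 hrs they were 52.2, 36.6, 50.8 and 47.4 CPM with IFN-γ alone and 122, 92.4, 109.5 and 128 CPM with both. The 12 hrs wells with IFN-γ alone were thus below all other wells, and the wells with both factors overlapped between the times. With IFN-γ alone Dmp1 fell by 1.53 on the log2 scale from 4 to 12 hrs, whereas with both factors its log2FC was -0.25 (adjusted p = 0.204). The Activin-A effect was -0.0045 ± 0.11 at 4 hrs and 1.28 ± 0.15 at 12 hrs, and the time difference was 1.28 ± 0.19 (adjusted p = 4.93e-06).

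The promoters of Acta2 and Dmp1 are printed because these 2 genes had the lowest p among those whose Activin-A effect was larger at 12 hrs. Sequences are RefSeq's of GRCm38.p6, from 250 bases before to 50 after the transcription start, 5′ to 3′ on the gene's strand, in lower case with the motif matches in capitals. The Acta2 window is chr19:34255324-34255623 on the minus strand and the Dmp1 window, the first of 2 listed for this gene, is chr5:104197325-104197624 on the plus strand.
Acta2: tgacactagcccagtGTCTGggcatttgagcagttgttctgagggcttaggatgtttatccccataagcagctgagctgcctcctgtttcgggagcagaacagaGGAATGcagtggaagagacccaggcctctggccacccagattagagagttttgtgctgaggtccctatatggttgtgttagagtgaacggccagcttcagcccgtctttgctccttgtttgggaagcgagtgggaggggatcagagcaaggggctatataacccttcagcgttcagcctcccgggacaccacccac
Dmp1: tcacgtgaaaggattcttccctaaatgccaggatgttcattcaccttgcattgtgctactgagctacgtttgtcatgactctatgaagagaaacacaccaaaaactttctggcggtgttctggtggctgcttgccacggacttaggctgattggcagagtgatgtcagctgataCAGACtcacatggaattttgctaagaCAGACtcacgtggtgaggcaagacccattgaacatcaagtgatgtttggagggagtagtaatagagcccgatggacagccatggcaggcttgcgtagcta
The capitals in Acta2 are a match to CAGAC, the short Smad motif, on the reverse strand, and a match to GGAATG, the TEAD motif, and those in Dmp1 are 2 matches to CAGAC. Of 32851 windows of this length, 49.6% held CAGAC and 14.7% held GGAATG on either strand. The other motifs searched were GGCGC (Smad, in 36.9% of windows), TGANTCA (AP-1, 7.81%), TTCNNNGAA (GAS, the IFN-γ-activated site, 8.30%) and GAAANNGAA (an ISRE-like motif, 8.56%). Of the 9549 windows of tested genes, the set from which the 9 genes come, 45.8% held CAGAC, 66.3% GGCGC, 11.4% GGAATG, 4.79% TGANTCA, 6.57% TTCNNNGAA and 7.07% GAAANNGAA. Of the 9 genes, 8 had a window. CAGAC was found in windows of Acta2, Dmp1, Sertad4 and Chst2, GGCGC in those of Crabp1, Mt1, Sertad4, Chst2 and Igsf11, and GGAATG also in that of Crabp1. The Oasl2 window held 0 matches to the 6 motifs, which says only that these letters are not in that window. A run of GGCGCC holds overlapping matches to GGCGC on both strands.

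Sertad4, a SERTA domain gene, had lower counts, between 7 and 40 per well. Its levels were 22, 20.1, 22 and 34.3 CPM with IFN-γ alone and 15.8, 18.8, 21.9 and 21.7 CPM with both factors at 4 hrs. At 12 hrs they were 10.9, 8.36, 7.56 and 15 CPM and 30.5, 24.8, 27.7 and 18.6 CPM. The groups overlapped at 4 hrs and did not at 12 hrs. The Activin-A effect was -0.35 ± 0.23 at 4 hrs (adjusted p = 0.657) and 1.24 ± 0.27 at 12 hrs (adjusted p = 0.00471). As for Dmp1, the level fell over time with IFN-γ alone, by 1.22 on the log2 scale (adjusted p = 0.000747), and had a log2FC of 0.37 with both factors (adjusted p = 0.384). The time difference of the Activin-A effect was 1.59 ± 0.36 (adjusted p = 0.0387), and it was not a DEG with DESeq2 or without any 1 of 10 of the 16 wells.

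Spp1 encodes osteopontin, a secreted phosphoprotein of the same family as Dmp1, and lies 3 protein-coding genes further along chromosome 5 in RefSeq's GRCm38.p6 order, with Ibsp and Mepe, which were not tested, in between. Its levels at 4 hrs were 7845, 7871, 7508 and 7251 CPM with IFN-γ alone and 7509, 7171, 7776 and 7599 CPM with both factors. At 12 hrs they were 5421, 5419, 5158 and 5157 CPM and 6357, 5830.5, 6778 and 7043 CPM, again with overlap at 4 hrs and none at 12 hrs. The Activin-A effect was a DEG at 12 hrs (0.30 ± 0.054, adjusted p = 0.000178), and the time difference of 0.32 ± 0.076 did not pass (adjusted p = 0.0572). Across the means of the 8 groups, Dmp1 was most like Frrs1 (Pearson r = 0.98), Spp1 (0.98) and Srm (0.97) among 8627 genes, a description over 8 points that share wells and times. By the same measure Acta2 was most like Aff4 (0.98), Dbn1 (0.95) and Tmsb10 (0.94), and Pmepa1 was close to Ext1 (0.98) and Chsy1 (0.97).

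Pmepa1, a membrane protein that binds Smads and limits TGF-β family signals, had a strong response at 4 hrs and a much smaller one at 12 hrs. At 4 hrs its level was 64.9, 51.4, 36.7 and 58.3 CPM with IFN-γ alone and 281, 285, 298 and 315 CPM with both factors. The corresponding levels at 12 hrs were 31.5, 29.3, 29.2 and 34.1 CPM and 59.9, 53, 77.4 and 46.6 CPM. At either time the wells with both factors were above all wells with IFN-γ alone. The Activin-A effect was 2.46 ± 0.13 at 4 hrs (adjusted p = 1.09e-28) and 0.93 ± 0.20 at 12 hrs (adjusted p = 0.00269), so that the time difference was -1.53 ± 0.25 (adjusted p = 6.9e-05), all by edgeR's quasi-likelihood test. Pmepa1 fell from 4 to 12 hrs in both arms, by 0.78 on the log2 scale with IFN-γ alone and by 2.31 with both factors.

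Other Smad feedback genes had fewer calls. Of 12 tested members of the list of feedback inhibitors and co-repressors, 3 were higher at 4 hrs (Pmepa1, Ski and Skil), against 0.718% of all genes, 1 was higher at 12 hrs (Pmepa1), against 0.396%, and 1 was a DEG of the time difference (Pmepa1), against 0.0536% in that direction, and the median time difference of the list was -0.14, against -0.0041 over all tested genes. Skil, a co-repressor that binds Smads, was at 13.5, 13.1, 11.8 and 18 CPM with IFN-γ alone and 31.6, 21.4, 30.5 and 28 CPM with both factors at 4 hrs. Its levels were 8.49, 9.41, 13 and 7.48 CPM and 12.4, 5.64, 11.1 and 10.5 CPM at 12 hrs. The wells were apart at 4 hrs and overlapped at 12 hrs, but the time difference of -0.87 ± 0.43 did not pass the test (adjusted p = 0.741), at counts of 5 to 32 per well. For Smad7, the inhibitory Smad, the Activin-A effect was 0.34 ± 0.17 at 4 hrs and 0.44 ± 0.21 at 12 hrs, with a time difference of 0.097 ± 0.27, and 0 of these values passed. None of the 13 tested receptors and Smads was a DEG at 4 hrs, at 12 hrs or of the time difference with edgeR, against 1.05%, 0.772% and 0.0964% of all genes. For the time difference 0 of the 13 had an unadjusted p under 0.05, against 6.67% of all genes. At these shares few or 0 calls among 13 genes say little about them.

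Mt1, a metal-binding metallothionein, was lower with Activin-A at 4 hrs and not called at 12 hrs. Its levels at 4 hrs were 1054, 1052, 1111 and 1147 CPM with IFN-γ alone and 734, 828, 723 and 786 CPM with both factors, and at 12 hrs they were 461, 409.8, 426 and 404 CPM and 401, 397, 399 and 397 CPM. The groups were apart at both times, with the wells given both factors lower. The Activin-A effect was -0.51 ± 0.060 at 4 hrs (adjusted p = 1.59e-09) and -0.089 ± 0.070 at 12 hrs (adjusted p = 0.763), a time difference of 0.42 ± 0.093 (adjusted p = 0.0387), which was lost with DESeq2 and without any 1 of 10 of the 16 wells. Over time Mt1 fell by 1.364 with IFN-γ alone and fell by 0.95 with both factors on the log2 scale.

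Crabp1, a cytoplasmic retinoic acid-binding protein and a very abundant transcript in these cells, was lower with Activin-A at 12 hrs. At 4 hrs its levels were 6348, 6015, 4937 and 6471 CPM with IFN-γ alone and 6425, 6319, 6556 and 6607 CPM with both factors. At 12 hrs, the wells with IFN-γ alone were at 7600.1, 7367, 6798 and 7621 CPM and those with both factors at 5716, 6746, 6267 and 6430.1 CPM. The 12 hrs groups did not overlap. Crabp1 rose over time with IFN-γ alone, by 0.30 on the log2 scale (adjusted p = 5.92e-06), and had a log2FC of -0.042 with both factors (adjusted p = 0.717). The time difference was -0.35 ± 0.073 (adjusted p = 0.0189), and it was lost with DESeq2 and without any 1 of 5 of the 16 wells.

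Oasl2, an oligoadenylate synthetase-like gene of the interferon response, had the same pattern. Its levels were 153, 158, 175 and 146 CPM with IFN-γ alone and 165, 151, 140.0 and 171 CPM with both factors at 4 hrs. At 12 hrs they were 252, 256, 231 and 255 CPM with IFN-γ alone and 178, 188, 155 and 164 CPM with both. Wells with IFN-γ alone at 12 hrs stood above the other 12, which overlapped. With IFN-γ alone Oasl2 rose by 0.67 on the log2 scale from 4 to 12 hrs (adjusted p = 3.26e-09), and with both factors the log2FC was 0.13 (adjusted p = 0.465). The time difference of the Activin-A effect was -0.54 ± 0.13 (adjusted p = 0.0483), just inside the threshold, and was lost with DESeq2 and without any 1 of 13 of the 16 wells.

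Chst2, a sulfotransferase of carbohydrate chains, and Igsf11, an adhesion molecule of the immunoglobulin superfamily, were DEGs of the time difference but at neither time alone. Chst2 was at 162, 138, 134 and 143 CPM with IFN-γ alone and 191, 158, 190.5 and 178 CPM with both factors at 4 hrs, and at 198, 188, 196 and 186 CPM and 149, 185, 162 and 156 CPM at 12 hrs. Igsf11 was at 25.7, 30.5, 23.5 and 33.4 CPM and 48.5, 42.7, 35.2 and 51.4 CPM at 4 hrs, and at 47.3, 46, 67 and 56.5 CPM and 46.3, 39.4, 40.9 and 33.8 CPM at 12 hrs. In both genes the mean was higher with Activin-A at 4 hrs and lower with it at 12 hrs. The time difference was -0.55 ± 0.13 for Chst2 and -1.05 ± 0.24 for Igsf11 (adjusted p = 0.0483 for both), and either was lost with DESeq2 and without any 1 of 13 of the 16 wells. Both genes rose over time with IFN-γ alone, by 0.41 and 0.90 on the log2 scale.

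A minority of the antiviral genes were called lower with Activin-A at 12 hrs, although most effects were below 0 at that time, and none was called at 4 hrs. Of 47 tested members of the list of antiviral and nucleic acid-sensing genes, 7 were DEGs lower at 12 hrs (Isg15, Ifit3, Oasl2, Ifi44, Ddx58, Ifih1 and Oas3), against 0.375% of all genes. At 4 hrs 0 were DEGs, against 1.05% of all genes. The Activin-A effect was below 0 in 44 of the 47 at 12 hrs, against 4836 of 9332 over all genes. At 4 hrs it was below 0 in 32 of the 47, against 4764 of 9332. The time difference was a DEG in 1 of the 47, Oasl2, while 10 had a negative time difference at an unadjusted p under 0.05 and 0 a positive one, against 3.47% and 3.19% of all genes. Below 0 were 38 of the 47 time differences, against 4744 of 9332 over all genes, with a median of -0.19, and the median Activin-A effect was -0.082 at 4 hrs and -0.27 at 12 hrs, against -0.0041, -0.0044 and -0.0079 over all genes. With IFN-γ alone 23 of the 47 rose from 4 to 12 hrs and 0 fell, whereas with both factors 8 rose and 1 fell; over all genes 8.41% changed with time in the wells with IFN-γ alone and 7.1% in those with both factors. The genes of this list are regulated together, so that its count is not one of independent genes. Ifit3, like H2-K1 of the class I genes, has close relatives between which 3′ reads can be split, and its level is uncertain in that respect.

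**Figure D2:**
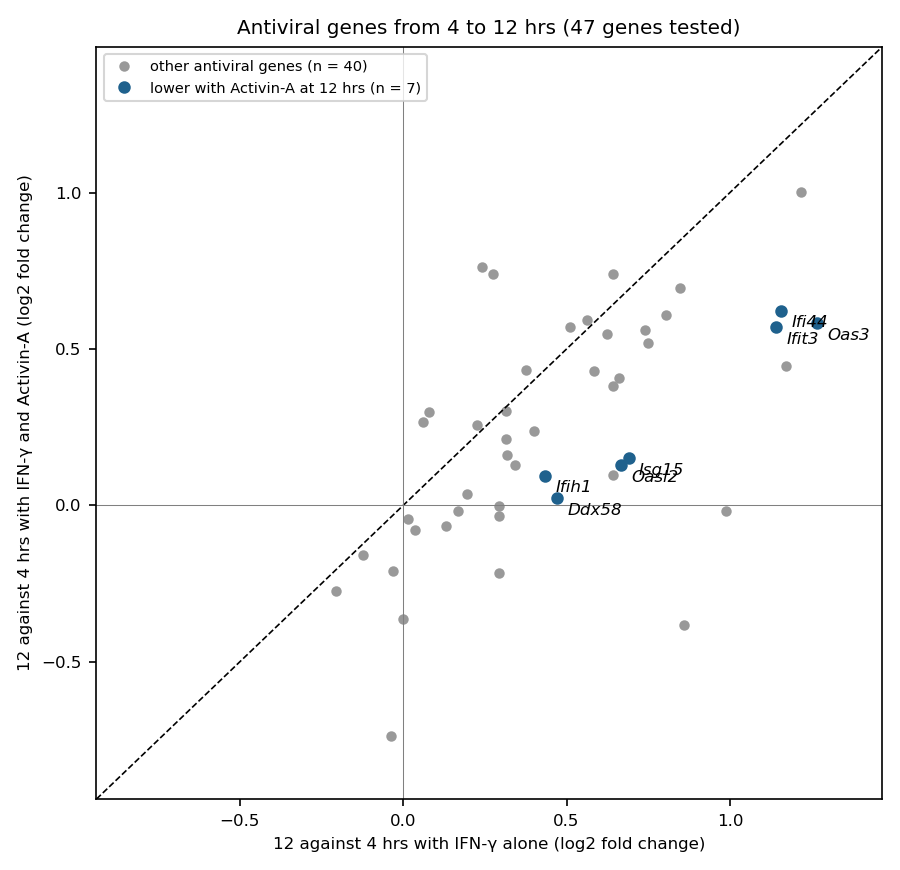
Change from 4 to 12 hrs (log2 fold change) of the 47 tested antiviral genes, with IFN-γ alone on the x axis and with IFN-γ plus Activin-A on the y axis. Each point is 1 gene, the dashed line marks equal change, and blue points are the 7 DEGs lower with Activin-A at 12 hrs. Of the 47 points, 38 lie below the dashed line, where the time difference is negative, against 4744 of 9332 over all genes.

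Isg15, a ubiquitin-like interferon-stimulated protein, was at 235, 201, 218 and 224 CPM with IFN-γ alone and 228, 207, 278 and 220.1 CPM with both factors at 4 hrs. At 12 hrs it was at 379.6, 393, 253 and 383 CPM and 280.1, 301, 221 and 232 CPM, and the groups overlapped, with replicate 3 of IFN-γ alone below 2 of the wells with both factors. Ifit3, which binds viral RNA complexes, was at 326, 286, 239 and 255 CPM with IFN-γ alone and 186, 219, 185 and 146 CPM with both factors at 12 hrs, without overlap, and at 4 hrs the groups overlapped around means of 126 and 124 CPM. Ifi44 had levels of 192, 205, 180.4 and 195 CPM with IFN-γ alone and 122, 151, 102 and 81.6 CPM with both factors at 12 hrs, again apart, against 76.4 to 99.2 and 65 to 83.3 CPM at 4 hrs. The time differences were -0.54 ± 0.14 for Isg15, -0.57 ± 0.15 for Ifit3 and -0.53 ± 0.17 for Ifi44, and they did not pass (adjusted p = 0.11, 0.116 and 0.319 with edgeR's quasi-likelihood test). The RNA sensors Ddx58 (RIG-I) and Ifih1 (MDA5) were DEGs at 12 hrs, with Activin-A effects of -0.66 ± 0.14 and -0.62 ± 0.17, and had time differences of -0.45 ± 0.21 and -0.34 ± 0.24. Tmem173, which encodes STING and was chosen after its values were seen, had an effect of -0.14 ± 0.10 at 4 hrs and -0.30 ± 0.10 at 12 hrs, both short of the threshold.

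Irf7, a transcription factor that drives the later wave of interferon-induced genes, was lower with Activin-A at 12 hrs and not called at 4 hrs. The effect at 12 hrs was -0.64 ± 0.14 (adjusted p = 0.00307 with edgeR's quasi-likelihood test). It was at 47.8, 61, 48.5 and 60.0 CPM with IFN-γ alone and 69.6, 54.7, 56.2 and 65.9 CPM with both factors at 4 hrs, and at 132, 118, 82.1 and 131 CPM and 85.8, 91.3, 64.2 and 55.9 CPM at 12 hrs. The wells overlapped at either time, with replicate 3 of IFN-γ alone at 12 hrs again the lowest of its group. Irf7 rose over time with IFN-γ alone, by 1.07 on the log2 scale (adjusted p = 8.79e-09), and its time difference was -0.79 ± 0.21 (adjusted p = 0.148). It was the only DEG among the 33 tested genes of IFN-γ signalling, the interferon-inducible GTPases and their regulators at 12 hrs, where 0.375% of all genes were lower. Of the 33, 0 were DEGs at 4 hrs or of the time difference, against 1.05% and 0.0964% of all genes. Irf1, an early-induced factor of the interferon response, had an Activin-A effect of 0.062 ± 0.058 at 4 hrs and 0.015 ± 0.060 at 12 hrs, and the 95% interval of its time difference, -0.21 to 0.12, held 0.

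Among 21 tested genes of class I antigen presentation, H2-K1 and H2-T23, a classical and a nonclassical class I molecule, were lower at 12 hrs, against 0.375% of all genes. Of the 21, 0 were DEGs at 4 hrs and 0 of the time difference, against 1.05% and 0.0964% of all genes. H2-K1 was at 393, 393, 413 and 376 CPM with IFN-γ alone and 403, 373, 374 and 367 CPM with both factors at 4 hrs, and at 1254, 1218, 1072 and 1205 CPM and 966, 1050.5, 999 and 1001 CPM at 12 hrs. Its rise over time was thus large in both arms, at a log2FC of 1.60 with IFN-γ alone and 1.41 with both factors, and the time difference of the Activin-A effect was -0.19 ± 0.092 (adjusted p = 0.73).

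Of 12 tested chemokines and cytokines, Ccl2, Il33 and Cxcl10 were lower at 12 hrs, against 0.375% of all genes, and Ccl2 also at 4 hrs, against 0.332%. Il33, an alarmin of the interleukin-1 family, was at 208, 214, 216 and 181 CPM with IFN-γ alone and 138, 169, 169.5 and 172 CPM with both factors at 4 hrs, and at 263, 283, 273 and 280.2 CPM and 119, 179, 137 and 168 CPM at 12 hrs. The groups were apart at either time, and the gap was wider at 12 hrs. The effect was -0.32 ± 0.092 at 4 hrs (adjusted p = 0.0575) and -0.87 ± 0.091 at 12 hrs (adjusted p = 8.7e-12), and the time difference of -0.55 ± 0.13 lay just outside the threshold (adjusted p = 0.0572). Ccl2, which attracts monocytes, was at 338, 309.5, 298 and 315 CPM and 253, 235, 227 and 245 CPM at 4 hrs and at 878, 856, 636 and 824 CPM and 404, 570.3, 444 and 449.8 CPM at 12 hrs. It was thus below the wells with IFN-γ alone in all wells with both factors at both times, with a time difference of -0.38 ± 0.12 (adjusted p = 0.278). Cxcl10, a chemokine that attracts activated T cells, had Activin-A effects of -0.16 ± 0.10 at 4 hrs and -0.65 ± 0.11 at 12 hrs. Unlike those of Il33 and Ccl2, the groups of Cxcl10 overlapped at either time. The time difference of Cxcl10 was -0.50 ± 0.15 (adjusted p = 0.228 with edgeR).

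Some genes of the contractile apparatus were higher with Activin-A at either time. Of 23 tested members, 4 were higher at 4 hrs (Cnn2, Cald1, Pdlim7 and Pdlim5), against 0.718% of all genes, and 7 at 12 hrs (Tpm1, Flna, Cnn2, Acta2, Cald1, Pdlim5 and Tagln), against 0.396%, 0 were lower at either time, and Acta2 was the 1 DEG of the time difference. The median effect was 0.14 at 4 hrs and 0.14 at 12 hrs, and the median time difference was -0.0085. At an unadjusted p under 0.05 the time difference was positive in 3 of the 23 and negative in 0, against 3.19% and 3.47% of all genes. Cald1, the actin-binding caldesmon, was at 174 to 213 CPM with IFN-γ alone and 278 to 312 CPM with both factors at 4 hrs, and at 195 to 209 CPM and 263 to 319.6 CPM at 12 hrs. Its time difference was -0.10, with a 95% interval of -0.34 to 0.13. Tagln, the smooth-muscle protein transgelin, was at 0, 2.09, 2.16 and 0 CPM with IFN-γ alone and 5.65, 9.02, 6.64 and 12.8 CPM with both factors at 12 hrs. At 4 hrs it was at 4.90, 0.872, 7.35 and 6.86 CPM and 2.11, 2.56, 1.90 and 7.22 CPM, and with counts of 0 to 11 per well, in part at or under the floor, no fold is given for it.

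Of 40 tested extracellular matrix genes, 6 were higher at 12 hrs (Spp1, Timp1, Bgn, Smoc2, Dmp1 and Col5a2) and 1 lower (Tgfbi), against 0.396% and 0.375% of all genes, while 2 were higher at 4 hrs (Bgn and Col5a2), against 0.718%, and 0 lower; Dmp1 was the 1 DEG of the time difference, and the list's median time difference was 0.0078. At an unadjusted p under 0.05, 7 of the 40 had a positive and 3 a negative time difference, against 3.19% and 3.47% of all genes. Tgfbi, a secreted adhesion protein named for its induction by TGF-β, was at 228, 237, 228 and 229 CPM with IFN-γ alone and 277, 228, 230.5 and 245 CPM with both factors at 4 hrs, and at 169.8, 171, 139 and 134 CPM and 109.6, 105, 125 and 113 CPM at 12 hrs. It was lower in all 12 hrs wells with both factors than with IFN-γ alone, and the time difference of -0.51 ± 0.13 did not pass (adjusted p = 0.119). Timp1, an inhibitor of matrix metalloproteinases, had Activin-A effects of 0.13 ± 0.052 at 4 hrs and 0.29 ± 0.054 at 12 hrs (adjusted p = 0.328 and 0.000296), and its time difference was 0.16 ± 0.075. Smoc2, a calcium-binding matrix protein, had effects of 0.28 ± 0.095 and 0.52 ± 0.11, with a time difference of 0.23 ± 0.15.

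**Figure D3:**
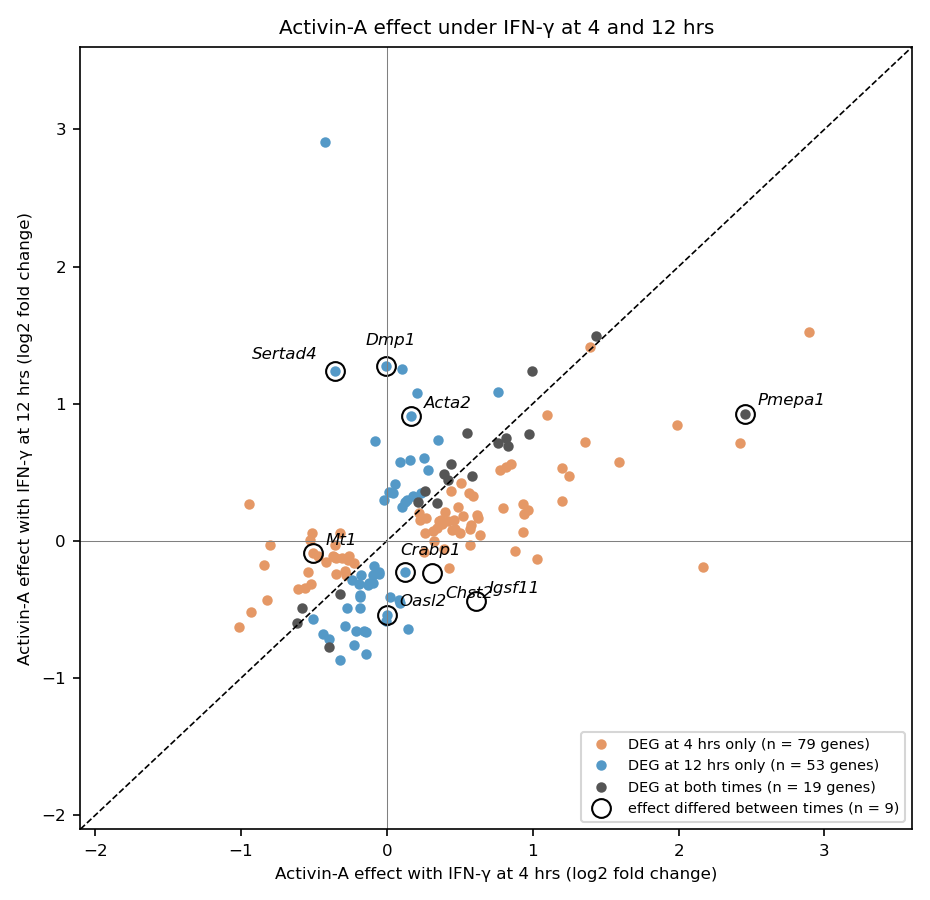
Activin-A effect in the presence of IFN-γ (log2 fold change) at 4 hrs on the x axis and at 12 hrs on the y axis for the 151 genes that were DEGs at either time; each point is 1 gene, the dashed line marks equal effects, and open circles mark the 9 DEGs of the time difference, of which Chst2 and Igsf11 were DEGs at neither time. Pmepa1 lies far to the right of the line, and Dmp1, Sertad4 and Acta2 lie above it, at 4 hrs effects of -0.0045, -0.35 and 0.17.

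In all, 19 genes were DEGs of the Activin-A effect at both 4 and 12 hrs, 15 higher and 4 lower at each time. The 95% interval of the time difference held 0 in 16 of the 19, against 8710 of all 9332 genes. In 3 of the 19 it did not (Pmepa1, Ccl2 and Thbs1). The 19 genes were chosen by their calls in the same wells that give the time difference. The count over all genes is therefore not a fair comparison, and no conclusion is drawn from it. Ccn2, a matricellular protein and common target of Smads and YAP, was at 73.5, 62.8, 70.6 and 90.0 CPM with IFN-γ alone and 182, 196, 229 and 200.3 CPM with both factors at 4 hrs. Its levels were 131, 143, 149 and 149 CPM and 429, 372, 422 and 397 CPM at 12 hrs. Ccn2 rose over time in both arms, and the wells with both factors stood above the others at each time. The effect was 1.43 ± 0.11 at 4 hrs and 1.496 ± 0.090 at 12 hrs, and the time difference of 0.063 had a 95% interval of -0.23 to 0.36. A change of the effect inside that interval cannot be told from none.

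Thbs1, the matrix protein thrombospondin 1 that can release latent TGF-β, was at 814, 858, 849.5 and 867 CPM with IFN-γ alone and 1692, 1666, 1671 and 1632 CPM with both factors at 4 hrs, and at 651, 623, 620.1 and 654 CPM and 1152, 1025, 1036 and 1159 CPM at 12 hrs. The wells with both factors were above the others at each time, although the level fell over time in both arms. Its time difference was -0.20 ± 0.087, with a 95% interval of -0.37 to -0.022 and an adjusted p of 0.67 by edgeR's quasi-likelihood test. Ccn1, a relative of Ccn2, had effects of 0.83 ± 0.088 and 0.69 ± 0.082 and an interval of -0.38 to 0.10. Bgn, the matrix proteoglycan biglycan, had effects of 0.44 ± 0.069 and 0.56 ± 0.069 and an interval of -0.071 to 0.32. Among 17 tested YAP-linked and matricellular targets, 5 were higher at 4 hrs, among them Thbs1, Ccn1, Ccn2 and Tgfb1i1, and 3 at 12 hrs (Thbs1, Ccn1 and Ccn2), against 0.718% and 0.396% of all genes. Of the 17, 0 were DEGs of the time difference, against 0.0964% of all genes.

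Of the ligands and their binding proteins, the same 2 were called at both times. Of 14 tested, Inhba, which encodes the subunit of Activin-A itself, and Fstl1, a follistatin-like protein, were higher at 4 and at 12 hrs, against 0.718% and 0.396% of all genes. Of the 14, 0 were DEGs of the time difference, against 0.0964% of all genes. Inhba was at 91.8, 93.3, 83.8 and 96.8 CPM with IFN-γ alone and 116, 124, 134 and 110.1 CPM with both factors at 4 hrs, and at 58.2, 77.4, 59.4 and 50.7 CPM and 96, 83.4, 85.2 and 76.9 CPM at 12 hrs. The groups were apart at 4 hrs and overlapped at 12 hrs. The effects were 0.39 ± 0.11 and 0.49 ± 0.13, and the interval of the time difference was -0.24 to 0.43.

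Of the 151 genes that were DEGs at either time, 53 were DEGs at 12 hrs only (22 higher and 31 lower) and 79 at 4 hrs only (52 higher and 27 lower). Of the 53, 5 were DEGs of the time difference and 30 had an unadjusted p under 0.05 for it, and of the 79 these counts were 1 and 39, against 622 of all 9332 genes. The effect had the same sign at 12 hrs in 67 of the 79 genes called at 4 hrs only, and at 4 hrs in 42 of the 53 called at 12 hrs only, against 54.5% of all tested genes. The larger size at the time of the call follows from the way these genes were chosen. The same choice raises the counts for the time difference above those of all genes, so that no conclusion is drawn from them. Across all 9332 genes, Pearson's r between the effects at 4 and 12 hrs was 0.17, a description across genes, most of which had no measurable effect at either time. The median SE of the time difference was 0.25 on the log2 scale, against 0.18 and 0.17 for the effects at 12 and at 4 hrs.

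Among the genes called at 4 hrs only, 7 that belong to no list above are given here, a choice made after their values were seen. The integrin subunit genes Itgav and Itgb1 had Activin-A effects of 0.52 ± 0.098 and 0.23 ± 0.056 at 4 hrs and 0.18 ± 0.11 and 0.15 ± 0.058 at 12 hrs. The platelet-derived growth factor genes Pdgfa, Pdgfb and Pdgfc had effects of 0.36 ± 0.086, 1.25 ± 0.34 and 0.96 ± 0.19 at 4 hrs and 0.14 ± 0.097, 0.47 ± 0.42 and 0.22 ± 0.22 at 12 hrs. Pdgfb had few counts, a mean of 9.25 per well. Its 12 hrs means of 5.64 CPM with IFN-γ alone and 8.20 CPM with both factors were not far above the floor. Hes1, a repressor downstream of Notch, had 0.80 ± 0.16 and 0.24 ± 0.22. Ust, a sulfotransferase of glycosaminoglycans, had an effect of 2.17 ± 0.32 at 4 hrs. At 12 hrs its means were 4.70 CPM with IFN-γ alone and 4.28 CPM with both factors, near the floor, and no fold is given for that time. All 7 of these time differences were negative and none passed with edgeR's quasi-likelihood test. The lowest adjusted p was that of Ust (adjusted p = 0.152). Other integrin and growth factor genes, likewise chosen after their values were seen, were called at other times: the integrin subunit gene Itgb5 was higher at both times, by 0.82 ± 0.13 at 4 hrs and 0.75 ± 0.14 at 12 hrs, and Itgb7, another integrin subunit gene, and Areg, which encodes the growth factor amphiregulin, were lower at 12 hrs only (-0.49 ± 0.11 and -0.41 ± 0.097). Of 15 tested regulators of the mesenchymal transition, Cdh6 and Snai2 were called at 4 hrs, 1 higher and 1 lower, against 0.718% and 0.332% of all genes. At 12 hrs 0 of the 15 were called, against 0.772% of all genes. Cdh6, a cadherin, was higher (1.10 ± 0.18) and Snai2, the repressor Slug, lower (-0.80 ± 0.21), with time differences of -0.18 ± 0.35 and 0.78 ± 0.28.

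Fblim1, a filamin-binding protein of cell junctions, and Nrn1, the neuronal growth protein neuritin, were the 2 genes called at 4 hrs only among the 11 genes next in order of p for the time difference. Fblim1 was at 71, 62.8, 55.9 and 42 CPM with IFN-γ alone and 128, 102, 110.5 and 102 CPM with both factors at 4 hrs, and at 54.6, 68, 52.9 and 62.3 CPM and 62.1, 62, 73 and 76.9 CPM at 12 hrs. Nrn1 was at 904, 983, 1026 and 857 CPM and 739, 622, 649.5 and 708 CPM at 4 hrs, and at 599, 600.1, 696 and 554 CPM and 608, 484, 604 and 576 CPM at 12 hrs. For either gene the groups were apart at 4 hrs and overlapped at 12 hrs. The time differences were -0.75 ± 0.19 and 0.36 ± 0.095 (adjusted p = 0.11 and 0.138). The others of the 11 were Il33, Spp1, Isg15, Ifit3, Tgfbi and Irf7, given above, and Acer3, Id4 and Arid5b, with time differences of 1.13 ± 0.28, 0.97 ± 0.26 and 0.51 ± 0.14, and DEGs at neither time.

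The Id genes are inhibitors of DNA binding that respond to BMP and TGF-β family signals; Id4 was named by its p, and Id1, Id2 and Id3 were added after their values were seen. They fell over time with IFN-γ alone in 4 of 4 cases, against 333 of all 9332 genes, and with both factors in 1 of 4, Id3, against 319. Id1 was at 108, 105, 123 and 98.6 CPM with IFN-γ alone and 80.1, 99.1, 92.4 and 112 CPM with both factors at 4 hrs, and at 35.2, 54.4, 68.1 and 56.5 CPM and 101, 60.9, 71.9 and 74.6 CPM at 12 hrs. Id4 was at 32.7, 18.8, 38.9 and 16.6 CPM with IFN-γ alone and 42.9, 31.6, 39.8 and 40.8 CPM with both factors at 12 hrs, where the groups overlapped. The time differences were positive in all 4, 0.66 ± 0.20 for Id1, 0.24 ± 0.22 for Id2, 0.21 ± 0.12 for Id3 and 0.97 ± 0.26 for Id4, and 0 of the 4 passed (lowest adjusted p = 0.148, edgeR's quasi-likelihood test).

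Lists of proliferation, stress and metabolism had few or 0 DEGs in these comparisons. Txnip, an inhibitor of thioredoxin, was lower at 12 hrs (effect -0.71 ± 0.14, adjusted p = 0.00143) and was the 1 DEG of any of these comparisons among 24 tested p53 targets and among 16 antioxidant genes, against 0.375% of all genes lower at 12 hrs. Cdc25b, a phosphatase that promotes entry into mitosis, was lower at 12 hrs (-0.49 ± 0.12) and the 1 DEG among 27 genes of G2 and mitosis, of which 24 had an Activin-A effect below 0 at 12 hrs and 20 a time difference below 0, against 4836 and 4744 of all 9332 genes. Their time differences were -0.32 ± 0.23 and -0.30 ± 0.17. Cdkn1a, the cell-cycle inhibitor p21, had effects of -0.15 ± 0.11 and -0.21 ± 0.11 and an interval of the time difference of -0.38 to 0.26. Slc16a1, a lactate transporter, was lower at 4 hrs (-0.37 ± 0.089) and the 1 DEG among 20 hypoxia and glycolysis genes, against 0.332% of all genes lower at 4 hrs. The tested members of the lists of S phase, G1, immediate-early, MAPK feedback, NF-κB, melanocyte lineage, amino-acid stress and sterol synthesis genes included 0 DEGs with edgeR. This held for the Activin-A effect at 4 hrs, at 12 hrs and for the time difference, against 1.05%, 0.772% and 0.0964% of all genes. At an unadjusted p under 0.05 the time difference was negative in 3 of 21 amino-acid stress genes and positive in 3 of 22 sterol synthesis genes, against 3.47% and 3.19% of all genes.

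Without IFN-γ, the same time difference of the Activin-A effect was a DEG in 2 genes (0.0214%), Acta2 and Bgn. Acta2 was at 398, 412, 361 and 407 CPM in NT wells and 467, 479, 424 and 414 CPM with Activin-A at 4 hrs, and at 442, 407, 440.3 and 491 CPM and 719, 736, 687 and 673 CPM at 12 hrs. Its time difference was 0.50 ± 0.093 without IFN-γ (adjusted p = 0.00751), against 0.74 ± 0.095 with it. For Bgn the time difference was 0.49 ± 0.097 without IFN-γ (adjusted p = 0.0107) and 0.12 ± 0.098 with it. The sign was the same with and without IFN-γ in 8 of the 9 DEGs of the time difference, the exception being Sertad4, against 4862 of 9332 genes tested. The 2 sets of wells are separate.

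**Figure D4:**
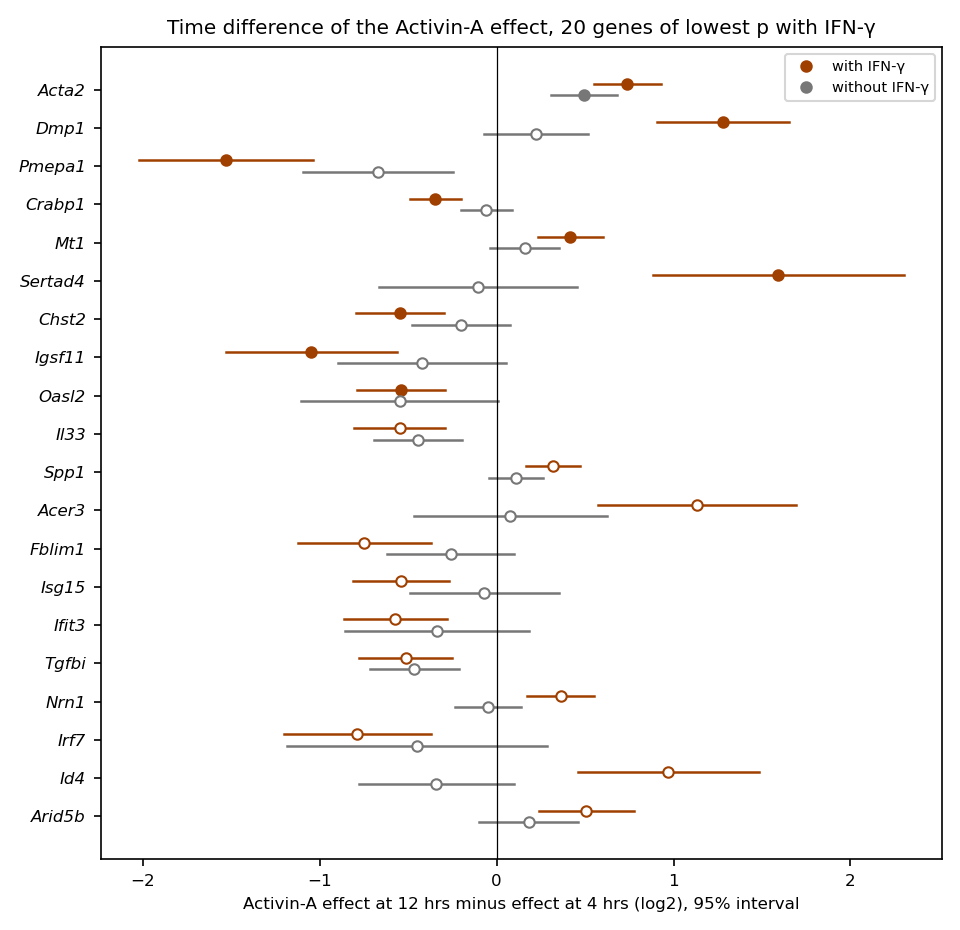
Time difference of the Activin-A effect (log2, 12 hrs minus 4 hrs) for the 20 genes of lowest p in the presence of IFN-γ, with IFN-γ (brown) and without (grey); points are estimates, lines 95% intervals, and filled points DEGs. The intervals with and without IFN-γ overlap for Acta2, at 0.74 and 0.50, and do not for Dmp1, at 1.28 and 0.22. They also part for Sertad4, Id4 and Nrn1, and barely for Crabp1. The difference itself did not pass its test for any of these genes, and its lowest adjusted p was that of Dmp1 (adjusted p = 0.258 with edgeR).

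The difference between the time differences with and without IFN-γ was a DEG in 0 genes (0%), with edgeR and with DESeq2, and 501 genes had an unadjusted p under 0.05 with edgeR. The lowest adjusted p was 0.258, shared by Dmp1, whose time difference was more positive with IFN-γ by 1.06 ± 0.24, and Psph, an enzyme of serine synthesis chosen after its values were seen, for which the difference was -1.362 ± 0.32. Dmp1 was at 191, 194, 183 and 168 CPM in NT wells and 237, 239, 217 and 299 CPM with Activin-A at 4 hrs, and at 89.7, 125, 111 and 103 CPM and 161, 140.3, 159 and 221 CPM at 12 hrs. Without IFN-γ the wells with Activin-A were therefore above NT at both times, while the wells with both factors were above those with IFN-γ alone at 12 hrs only. Pmepa1 was at 49.2, 65.4, 48.3 and 60.9 CPM in NT wells and 346, 315, 284 and 361 CPM with Activin-A at 4 hrs, and at 30.2, 43, 47.3 and 33.9 CPM and 182, 103, 107 and 167 CPM at 12 hrs. Its time difference was -0.67 ± 0.21 without IFN-γ (adjusted p = 0.705), and the difference from that with IFN-γ was -0.86 ± 0.32 (adjusted p = 0.867). For Oasl2 the time difference was -0.55 ± 0.28 without IFN-γ, at 20.9 to 23 CPM in NT wells at 4 hrs and 13.6 to 23.8 CPM with Activin-A at 12 hrs, and -0.54 ± 0.13 with it. The median SE of this difference was 0.35 on the log2 scale.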

How the data were processed

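Messenger RNA of YUMM3.3 cells was measured by BRB-seq in 32 wells, 4 for each of 8 groups of treatment and time as labelled. The counts deposited by the authors are raw whole numbers per gene; per the submitters' processing notes, reads were aligned with STAR 2.7.10b to GRCm39, counted with featureCounts and tested with DESeq2 1.36.0. Handling of duplicate reads is not given in the sources used here. The table held 12451 Ensembl identifiers, of which 12437 were matched to a symbol. The reference at hand was GRCm38, so that only promoter windows carry coordinates.

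Counts were filtered with filterByExpr, normalized by TMM and fitted with edgeR 4.0.16 (glmQLFit and glmQLFTest, R 4.3.3) over all 32 wells. Tests were two-sided, adjustment followed Benjamini-Hochberg over 9332 genes, and DEGs had an adjusted p under 0.05. The time difference is a contrast of 4 groups, and SE and 95% intervals were taken from its F statistic. CPM are TMM-normalized. Totals were 654539 to 1455074 counts per well, and the floor was 3 counts. The script was tested on simulated data with 200 changed genes.

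The members, lists and rules were chosen with earlier results of these data known. Named were the DEGs of the time difference and the genes next in order of p up to 20, list members that were DEGs at 12 or 4 hrs, 17 genes fixed by name, and the 3 genes most like each of the 3 DEGs of lowest p. Genes given as chosen after their values were seen stand outside this rule. Some genes that the rule names are not reported here. The 24 lists hold 555 genes, of which 471 were tested.

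Alternatives were DESeq2 1.42.0, which is the study's own method, RLE normalization, no filter, a mean of at least 10 counts, only the groups compared, the replicate number as a block, stricter thresholds, and each well left out in turn. Figures were drawn with matplotlib in Python.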

Additional observations from a re-analysis of the deposited data

Results flagged for a closer look

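The 9 genes with a time difference under IFN-γ and the 2 without it differ between time points by a test of the difference itself. With IFN-γ the values (log2) were 0.74 for Acta2, 1.28 for Dmp1, -1.53 for Pmepa1, -0.35 for Crabp1, 0.42 for Mt1, 1.59 for Sertad4, -0.55 for Chst2, -1.05 for Igsf11 and -0.54 for Oasl2, and without IFN-γ they were 0.50 for Acta2 and 0.49 for Bgn.

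In 7 of 128 groups of 4 wells tested, 1 well stood apart from the other 3 by Dixon's criterion, which chance alone meets in about 1 in 20 groups. With IFN-γ alone at 12 hrs, replicate 3 was low for Oasl2 at 231 CPM (252 to 256 in the others) and Isg15 at 253 CPM (379.6 to 393). With IFN-γ alone at 4 hrs, replicate 4 was high for Sertad4 at 34.3 CPM (20.1 to 22) and low for Ifit3 at 103 CPM (133 to 135), replicate 2 was high for Tgfbi at 237 CPM (228 to 229), and replicate 1 was low for Id4 at 40.4 CPM (46.3 to 47.1). With both factors at 4 hrs, replicate 1 was low for Il33 at 138 CPM (169 to 172). The 9 calls of the time difference became 10 without replicate 3 of IFN-γ alone at 12 hrs, which gained Nrn1, Isg15, Irf7 and Id4 and lost Chst2, Igsf11 and Sertad4. They became 8, 6 and 4 without replicates 1, 2 and 4 of IFN-γ alone at 4 hrs, and 5 without replicate 1 of both factors at 4 hrs.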

How the results depend on the processing

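Of the 9 genes with a time difference, Acta2, Dmp1 and Pmepa1 were called under all alternatives run, with 16 of 16 left-out wells and 9 of 9 other settings. The count of 9 was 3 with DESeq2 and at an adjusted p under 0.01, which kept these 3 genes, 6 with the replicate block and 6 without a filter on low counts, both of which lost Chst2, Oasl2 and Igsf11, and 7 at an absolute log2FC of at least 0.5. RLE normalization gave 9, a mean of at least 10 counts 10, and a fit of only the compared groups 11. Leaving out 1 well gave 3 to 18: it was 3 without replicate 3 of IFN-γ at 4 hrs, replicate 4 of both factors at 4 hrs, or replicate 1 or 3 of both factors at 12 hrs, 4 without replicate 4 of IFN-γ at 4 or at 12 hrs, 5 without replicate 1 of both factors at 4 hrs or replicate 2 of IFN-γ at 12 hrs, and 18 without replicate 2 of both factors at 12 hrs, where 10 genes, among them Spp1, Nrn1, Ccl2, Il33, Isg15, Ifit3, Mxra7, Ifi44 and Irf7, were gained and Igsf11 was lost. Without replicate 1 of Activin-A alone at 4 hrs, an alternative chosen after seeing the data, it was 12, and the count of the Activin-A effect at 4 hrs rose from 98 to 136. The cause was not tested.

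The count of the Activin-A effect with IFN-γ at 12 hrs, 72, was 39 at an adjusted p under 0.01, 37 at an absolute log2FC of at least 0.5, and 40 to 67 without 1 well, with 40 without replicate 1 of IFN-γ and 47 without replicate 1 of both factors. At 4 hrs the count of 98 was 45 and 55 under these thresholds and 53 to 92 without 1 well, with 53 and 58 without replicates 2 and 1 of IFN-γ and 64 without replicate 4 of both factors. Without IFN-γ, the 2 time differences were 1 with DESeq2, 1 at an adjusted p under 0.01, 0 at an absolute log2FC of at least 0.5, and 0 to 3 without 1 well: 0 without replicate 2 of NT or replicate 3 of Activin-A at 4 hrs, and 1 without replicate 4 of NT or replicate 2 of Activin-A at 4 hrs or replicate 1 of Activin-A at 12 hrs. The difference of the time differences, at 0, was 0 to 2 without 1 well, with 2 without replicate 1 of Activin-A at 4 hrs and 1 without replicate 4 of Activin-A at 12 hrs. From 4 to 12 hrs with IFN-γ alone, 785 genes became 501 with DESeq2, 434 at an adjusted p under 0.01 and 423 at the fold minimum, and with both factors 663 became 361 and 359 under these thresholds.

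Signs of uncalled time differences near 0 turned without 1 well, over ranges of -0.38 to 0.30 for Cdh6, -0.17 to 0.044 for Itgb5, -0.067 to 0.16 for Ccn2, -0.089 to 0.099 for Pdlim5, -0.0053 to 0.23 for Inhba, -0.0055 to 0.21 for Smad7 and -0.18 to 0.0092 for Cdkn1a. Replicate numbers did not pair the wells, since wells of the same number deviated together with a mean correlation of -0.0044 and 0 of 24 pairs were above 0.1 in the 16 wells with IFN-γ. Depth limits the genes with few counts, such as Tagln, Skil and Sertad4.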

Other observations

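Several genes outside the lists were lower or higher with Activin-A at both times or at 12 hrs, and were chosen after their values were seen. Ly6a, which encodes the surface protein Sca-1 and is interferon-inducible, was lower at 4 hrs (-0.32 ± 0.075) and at 12 hrs (-0.39 ± 0.064) and rose over time in both arms, by a log2FC of 1.501 with IFN-γ alone and 1.43 with both factors. Msn, which encodes moesin, a linker of actin and the membrane, was higher at both times (0.21 ± 0.057 and 0.28 ± 0.058). Ifitm3, a membrane protein that restricts virus entry, and Ly6e, an interferon-inducible surface protein, were lower at 12 hrs (-0.30 ± 0.060 and -0.32 ± 0.064), with effects of -0.093 ± 0.061 and -0.13 ± 0.069 at 4 hrs that did not pass. Time differences of these 4 genes did not pass with edgeR's quasi-likelihood test, at adjusted p from 0.589 to 0.947.

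Tfrc and Fth1, both of iron handling and also chosen after their values were seen, were called at 12 hrs only. Tfrc, the transferrin receptor, was at 38.8, 19.9, 42.1 and 41.6 CPM with IFN-γ alone and 46.3, 40.6, 84.1 and 67.6 CPM with both factors at 12 hrs, an effect of 0.74 ± 0.18 (adjusted p = 0.0146), and at 66.3 to 81.4 and 87.6 to 100.1 CPM at 4 hrs. Fth1, the heavy chain of ferritin, had an effect of -0.18 ± 0.048 at 12 hrs (adjusted p = 0.0364) and -0.088 ± 0.048 at 4 hrs. Their time differences, 0.39 ± 0.22 and -0.097 ± 0.068, did not pass the edgeR test (adjusted p = 0.8 and 0.862). That of Tfrc ran from 0.17 to 0.53 without 1 well, and the Tfrc groups overlapped at 12 hrs and were apart at 4 hrs. Fgf2, a fibroblast growth factor chosen in the same way, was called at 4 hrs only, where it was higher with Activin-A. With 0 to 13 counts per well, in part at or under the floor, no fold is given for it. Gbp2, also chosen so, a guanylate-binding protein among the more abundant interferon-induced transcripts here, had effects of -0.18 ± 0.052 at 4 hrs and -0.092 ± 0.051 at 12 hrs, both short of the threshold.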
